A study of Arabidopsis thaliana with 6 samples.

Results

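In 14-d-old A. thaliana seedlings, 104 genes had less polyadenylated RNA in nerd-1 plants, and also in nerd-1 plants that carry a NERD transgene (nerd-1+T), than in WT plants. A gene was taken when the lower of its 2 WT values was at least 5 FPKM (fragments mapped to a gene, scaled to its length and to the size of the library) and at least 2 times the highest of the 4 values in nerd-1 and nerd-1+T. Among the 33242 genes of the 5 chromosomes, 14910 had both WT values at that level, and the 104 genes were 0.698% of them. The libraries came from nerd-1 (a T-DNA insertion allele of NERD), from nerd-1+T (the same allele with a construct for flag-tagged NERD) and from WT, all in the Col-0 ecotype, with 2 replicates per genotype. NERD itself (AT2G16485) stood at 7.59 and 7.45 FPKM in nerd-1, 63.7 and 63.5 FPKM in nerd-1+T, and 14.1 and 13.9 FPKM in WT. The transgenic line therefore had several times the WT level of RNA counted at NERD, and the nerd-1 line still had part of that level. Values per gene do not show whether the RNA left in nerd-1 was full-length, and this was not tested. Each mutant genotype is 1 line, and nothing in the labels says whether replicates were separate cultures, so that p-values measure the spread between these libraries only.

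The members fall into several areas of plant biology. Among the 15 gene lists used, which were chosen with earlier results of these data known, the one with the most members was that of aliphatic glucosinolates. These sulphur compounds of the Brassicaceae are made from methionine in steps of chain elongation, core synthesis and side-chain modification, under the control of a small group of MYB transcription factors, and they are broken down to toxic products when tissue is wounded. A further group were cold-regulated genes, whose products protect membranes and proteins when plants lose water, and which are classically switched on by CBF transcription factors that bind a short promoter element with the core CCGAC.

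The members were chosen by their difference from WT, and all values against WT are given as a description. The ratio of the lower WT value to the highest mutant value ran between 2.005 and 21.7 with a median of 2.32. It was under 2.5 in 68 genes, at least 3 in 12 and at least 10 in 2. The mean level that remained in nerd-1 was 4.21% to 48.9% of the WT mean with a median of 39.2%, and in nerd-1+T it was 2.66% to 46.7% with a median of 33.1%. WT means spanned 5.27 to 2116 FPKM with a median of 24.7 FPKM. Each of the 104 genes passed the filter on low values through its WT libraries, and 100 of them had at least 1 FPKM in all 4 mutant libraries. In a limma fit on log2(FPKM + 1), 103 members were called lower in nerd-1 than in WT (background 36.3% of the 20249 features tested) and 104 were called lower in nerd-1+T than in WT (background 39.8%), with 0 called higher in either (background 19.4% in nerd-1, with 13.2% in nerd-1+T). Scaling moved that background, with 25.2% of all features called higher and 27.5% lower in nerd-1 when each library was set to its median feature, and 13.1% higher and 50.9% lower after scaling to the FPKM total. That all 4 mutant values lie below both WT values, which the rule requires, held in 45.9% of the 14910 genes. The median log2 change of the members was -1.26 in nerd-1, against -0.11 over all features, and -1.51 in nerd-1+T, against -0.17 over all features. These 2 comparisons share the WT libraries and were used by the rule, so nothing is read from them. As the material was whole seedlings, fewer cells of a type and less RNA per cell cannot be told apart.

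**Figure D1:**
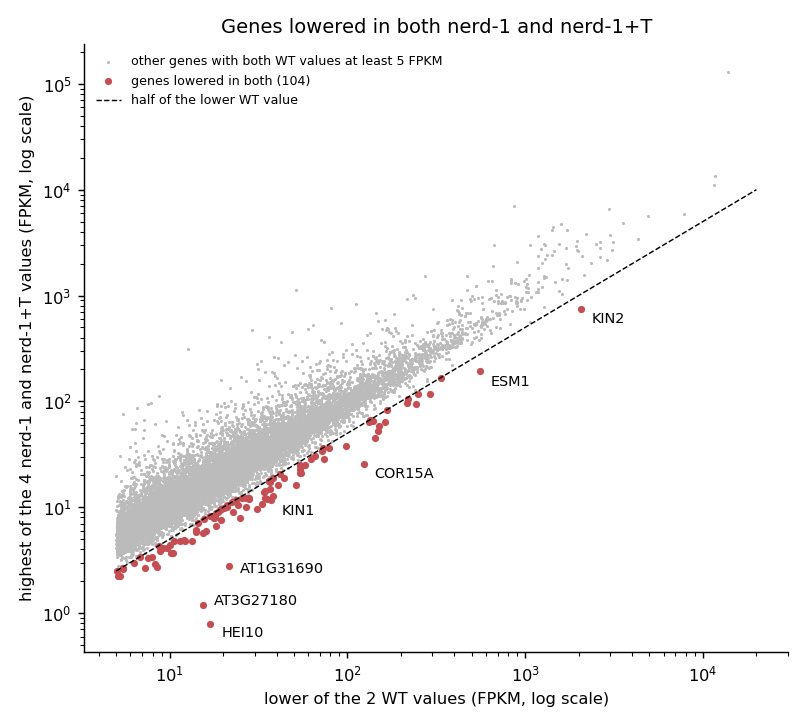
Lower of the 2 WT values (FPKM, log scale) against the highest of the 4 nerd-1 and nerd-1+T values (FPKM, log scale), with 1 point per gene that had both WT values of at least 5 FPKM. The 104 red points lie under the dashed line at 2-fold, most of them close to it, and HEI10, AT3G27180 and AT1G31690 lie far below it.

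The number of genes that met the rule depended on single libraries and on scaling. Leaving out a library can only add genes, and all 104 members were kept each time. Without nerd-1+T replicate 2 the rule gave 181 genes, and without each other library 105 to 138. When each library was scaled to its median feature, 63 genes remained, all of them among the 104, and scaling to the FPKM total gave 140 genes, of which 100 were shared. Applied to the replicate 1 libraries alone the rule chose 240 genes, of which 117 (48.8%) also met it in the replicate 2 libraries. Replicate 2 alone chose 159 genes, and the same 117 were 73.6% of them. The 104 members meet the rule in each replicate by construction and are among the 117. These shares are therefore no separate test of the members. Within the 104 genes the median ratio between the replicates was 1.05 in nerd-1, 1.16 in nerd-1+T and 1.04 in WT. The replicates differed by more than 1.5 times in 2 members in nerd-1, in 9 in nerd-1+T and in 0 in WT. At the border of the rule, the members with the smallest ratios were BBX15 (2.005), IMS2 (2.008) and AT3G06035 (2.011). The genes just outside it were SP1L2, AT5G01790 and AT3G09540. SP1L2 had 6.78 and 6.46 FPKM in nerd-1, 6.71 and 6.76 FPKM in nerd-1+T, and 13.5 and 13.8 FPKM in WT, so that members and non-members were alike there.

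A few library properties moved with the genotypes. MT1A, a metallothionein gene, took 12.9% and 13.5% of all FPKM in nerd-1, 3.57% and 1.101% of it in nerd-1+T, and 1.59% and 1.71% in WT. Its part in the differences reported here was not tested beyond the alternative scalings. None of the 42 tissue markers listed was a member. The summed level of 15 root markers was 158 and 148 FPKM in nerd-1, 144 and 128 FPKM in nerd-1+T, and 161 and 165 FPKM in WT, and of 14 root markers tested 4 were called lower and 1 higher in nerd-1 than in WT (backgrounds 36.3% and 19.4%), and 8 lower and 0 higher in nerd-1+T (backgrounds 39.8% and 13.2%). The 10 green shoot markers summed to 30456 and 30837 FPKM in nerd-1, 41183 and 27897 FPKM in nerd-1+T, and 36727 and 37355 FPKM in WT. Both the lower sums in nerd-1 and the spread in nerd-1+T came with LHCB1.3, a gene of the light-harvesting antenna that was listed at 0 in both nerd-1 libraries and in nerd-1+T replicate 2, so that an exact 0 in these files can be a failed estimate. Without LHCB1.3 the other 9 summed to 30456 and 30837 FPKM in nerd-1, 27714 and 27897 FPKM in nerd-1+T, and 24964 and 25732 FPKM in WT. LHCB1.1, a relative, had 2824 and 2799 FPKM in nerd-1, 3022 and 2672 FPKM in nerd-1+T, and 668 and 687 FPKM in WT. LHCB1.2, another, had 4197 and 4142, 3391 and 2764, and 1413 and 1418 FPKM in that order. Close relatives can share reads, so the sum without LHCB1.3 is uncertain too. Of the 10, 5 were called higher and 3 lower in nerd-1 than in WT (backgrounds 19.4% and 36.3%). In nerd-1+T they were 2 and 1 (13.2% and 39.8%). The 8 senescence markers summed to 754 and 770 FPKM in nerd-1, 1103 and 1325 FPKM in nerd-1+T, and 356 and 358 FPKM in WT, mainly through DIN1 and DIN6, with SAG12, the most specific of them, at 0 in all 6 libraries. The 9 inflorescence markers stayed under 5 FPKM in sum in every library. The part of these markers in the results was not tested.

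The lowest remaining level was that of HEI10 (AT1G53490, TAIR10.1 chr1:19963267-19966952, plus strand), a RING-type protein known for its role in meiotic crossing over. HEI10 had 0.780 and 0.662 FPKM in nerd-1, 0.406 and 0.507 FPKM in nerd-1+T, and 17.3 and 16.9 FPKM in WT. All 4 mutant libraries were below 1 FPKM, so that HEI10 passed the filter on low values through WT alone and the difference between nerd-1 and nerd-1+T is not read. It was the 1 member of which this was true. MRD1 (AT1G53480) overlaps the start of HEI10 on the other strand, and was at 0 and 0.0304 FPKM in nerd-1, 0.0285 and 0 FPKM in nerd-1+T, and 2.201 and 2.74 FPKM in WT. The library kit keeps strand but the counting is not stated to use it, so the values of these overlapping genes cannot be fully separated. On the other side of HEI10, MUM4 had 24.8 and 25.0 FPKM in nerd-1, 24.8 and 23.2 FPKM in nerd-1+T, and 32.0 and 31.9 FPKM in WT. The log2 change of MUM4 against WT was -0.35 in nerd-1, with -0.40 in nerd-1+T, and that of HEI10 was -3.40 in nerd-1, against -3.64 in nerd-1+T.

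AT3G27180 (chr3:10026837-10030087, minus strand) is annotated as a methyltransferase of the S-adenosylmethionine-dependent superfamily. It had 1.09 and 1.19 FPKM in nerd-1, 1.12 and 1.18 FPKM in nerd-1+T, and 15.5 and 15.4 FPKM in WT. The 4 mutant libraries were almost at one level (log2 difference between nerd-1 and nerd-1+T -0.01, SE 0.07, limma adjusted p = 0.929). Its neighbour CLC-B, a chloride channel gene whose end overlaps that of AT3G27180, had 5.74 and 5.38 FPKM in nerd-1, 6.29 and 5.61 FPKM in nerd-1+T, and 5.27 and 5.403 FPKM in WT. UKL2 on the other side had 10.5 to 11.6 FPKM in the mutant libraries and 12.4 and 13.1 FPKM in WT.

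AT1G31690 (chr1:11343854-11347945, plus strand), a copper amine oxidase family gene, had 1.62 and 1.81 FPKM in nerd-1, 2.81 and 2.69 FPKM in nerd-1+T, and 21.6 and 22.6 FPKM in WT. It was the 1 member called lower in nerd-1 than in nerd-1+T (log2 difference -0.47, SE 0.07, limma adjusted p = 0.00674), a call that was lost without nerd-1 replicate 1 (limma adjusted p = 0.0577). AT1G31710, a neighbour on the same strand, had 20.7 and 20.6 FPKM in nerd-1, 19.2 and 20.2 FPKM in nerd-1+T, and 24.8 and 25.3 FPKM in WT. Close relatives of a gene can share reads, and how Cufflinks divided them is not known here.

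**Figure D2:**
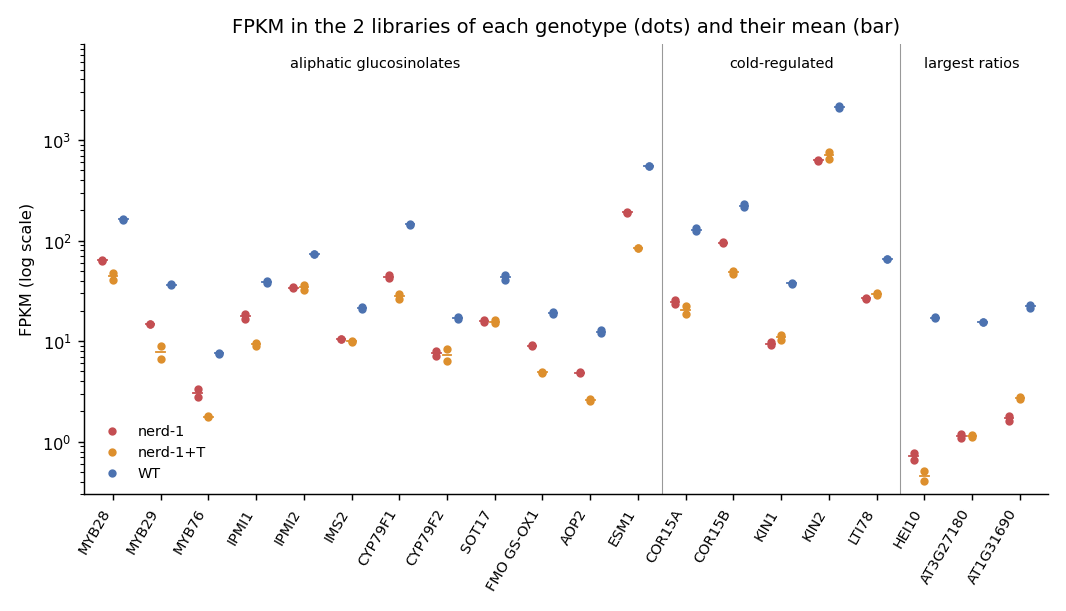
FPKM (log scale) of 20 members in the 2 libraries of each genotype (dots) with the mean (bar), in the order nerd-1, nerd-1+T and WT for each gene. The WT dots lie above all mutant dots by the rule, and within the glucosinolate genes the nerd-1+T dots lie below those of nerd-1 or overlap them.

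Among the other members with a ratio of at least 3, bHLH071, a basic helix-loop-helix protein, had 13.6 and 14.3 FPKM in nerd-1, 12.4 and 16.1 FPKM in nerd-1+T, and 51.1 and 52.6 FPKM in WT. AT2G40435, annotated as a SCREAM-like transcription factor, had 1.71 and 1.48 FPKM in nerd-1, 1.36 and 2.72 FPKM in nerd-1+T, and 8.51 and 10.01 FPKM in WT. For AT2G31560, a DUF1685 protein, the levels were 12.3 and 12.6 FPKM in nerd-1, 8.27 and 11.5 FPKM in nerd-1+T, and 39.2 and 38.2 FPKM in WT. In these genes the nerd-1 and nerd-1+T libraries overlapped or lay close together, and none was called different between the mutant genotypes. AT4G16447, uncharacterized, had 7.03 and 6.51 FPKM in nerd-1, 7.20 and 9.62 FPKM in nerd-1+T, and 30.8 and 30.9 FPKM in WT. AT3G44450, also uncharacterized, had 6.61 and 7.97 FPKM in nerd-1, 6.49 and 7.03 FPKM in nerd-1+T, and 24.7 and 25.1 FPKM in WT. AT2G34238 had 9.98 and 5.21 FPKM in nerd-1, 10.7 FPKM in one nerd-1+T library and a listed 0 in the other, and 40.2 and 32.9 FPKM in WT. This gene is short and its replicates stood far apart, and it was the 1 member not called lower in nerd-1 than in WT (log2 change -2.18, limma adjusted p = 0.147).

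Of the 20 genes on a list for aliphatic glucosinolates, 9 were members (background 0.698% of the 14910 genes at the WT level of the rule). As the list was chosen with earlier results of these data known, nothing is read from that count. MYB28, which with MYB29 drives most of the pathway, had 63.3 and 64.2 FPKM in nerd-1, 40.6 and 48.2 FPKM in nerd-1+T, and 162 and 163 FPKM in WT. MYB29 had 15.0 and 14.8 FPKM in nerd-1, 6.58 and 9.05 FPKM in nerd-1+T, and 36.5 and 36.7 FPKM in WT. MYB76, its neighbour at a distance of 1442 bases and a weaker regulator of the same pathway, had 3.33 and 2.76 FPKM in nerd-1, 1.77 and 1.79 FPKM in nerd-1+T, and 7.53 and 7.71 FPKM in WT. All 3 regulators were lowest in the nerd-1+T libraries, with no overlap between genotypes, and were called higher in nerd-1 than in nerd-1+T (log2 differences of 0.52, 0.86 and 0.54, limma adjusted p = 0.00936, 0.00777 and 0.00895). Without nerd-1 replicate 1 the limma adjusted p was 0.0683, 0.0622 and 0.0556, and without nerd-1 replicate 2 the calls of MYB28 and MYB29 were lost as well (0.0769 and 0.0632).

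Some members encode enzymes of methionine chain elongation. IMS2 (MAM3 on the list), which condenses the growing chain with acetyl-CoA, had 10.5 and 10.4 FPKM in nerd-1, 10.07 and 9.87 FPKM in nerd-1+T, and 21.7 and 21.1 FPKM in WT. IPMI2, a small subunit of isopropylmalate isomerase, had 33.7 and 34.3 FPKM in nerd-1, 32.5 and 36.2 FPKM in nerd-1+T, and 73.1 and 74.0 FPKM in WT. Neither was called different between nerd-1 and nerd-1+T. IPMI1, which encodes a related subunit and was not on the list, had 18.8 and 16.4 FPKM in nerd-1, 9.68 and 8.97 FPKM in nerd-1+T, and 38.2 and 39.8 FPKM in WT, and was called higher in nerd-1 than in nerd-1+T (log2 difference 0.85, SE 0.08, limma adjusted p = 0.00215).

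In core synthesis, CYP79F1, which converts chain-elongated methionine to aldoximes, had 45.4 and 42.2 FPKM in nerd-1, 26.1 and 29.6 FPKM in nerd-1+T, and 147 and 143 FPKM in WT. CYP79F2, its paralog 1183 bases upstream, had 8.001 and 7.09 FPKM in nerd-1, 6.33 and 8.28 FPKM in nerd-1+T, and 16.8 and 17.41 FPKM in WT. The pair may share reads, and the split between them is uncertain. SOT17, a sulfotransferase of the last core step, had 15.5 and 16.4 FPKM in nerd-1, 15.1 and 16.2 FPKM in nerd-1+T, and 40.6 and 45.5 FPKM in WT. Of these, CYP79F1 was called higher in nerd-1 than in nerd-1+T (log2 difference 0.64, SE 0.08, limma adjusted p = 0.00392), while CYP79F2 (0.05, adjusted p = 0.772) and SOT17 (0.03, adjusted p = 0.788) were not.

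For side-chain modification and breakdown, the members were FMO GS-OX1, AOP2 and ESM1. FMO GS-OX1, which oxygenates the side-chain sulphur, had 9.08 and 9.03 FPKM in nerd-1, 4.797 and 4.98 FPKM in nerd-1+T, and 19.3 and 18.7 FPKM in WT. AOP2, annotated as a transcribed pseudogene in this ecotype, had 4.83 and 4.89 FPKM in nerd-1, 2.52 and 2.66 FPKM in nerd-1+T, and 12.8 and 12.01 FPKM in WT. ESM1, not on the list, directs glucosinolate hydrolysis towards isothiocyanates, and had 188 and 193 FPKM in nerd-1, 84.1 and 84.1 FPKM in nerd-1+T, and 554 and 556 FPKM in WT. Each of these 3 genes had 3 separate levels, with nerd-1 between nerd-1+T and WT, and the differences between nerd-1 and nerd-1+T were 0.77, 0.70 and 1.17 log2 units (limma adjusted p = 0.000986, 0.00195 and 0.000276).

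Across the 9 members on the list and MYB76, IPMI1 and ESM1, which were added after their values had been seen, the remaining level was 30.2% to 48.9% of WT in nerd-1, with 15.2% to 46.7% in nerd-1+T, and 8 of 12 were called higher in nerd-1 than in nerd-1+T, 0 lower. These were 5 of the 9 on the list and all 3 of the added genes. Of all features 24% were called higher and 14% lower, and of all 104 members 40.4% were called higher and 0.96% lower. Among the 11 genes of the list that are not members, 10 were called lower in nerd-1 than in WT (background 36.3%) and 11 in nerd-1+T (background 39.8%), with 0 called higher in either, and the median log2 change was -0.57 in nerd-1, with -1.12 in nerd-1+T. The gene not called in nerd-1 was IIL1 (log2 change -0.14). The list as a whole, with its 9 members that are lower by the rule, had 19 of 20 genes called lower in nerd-1 and all 20 called lower in nerd-1+T, and median log2 changes of -0.91 for nerd-1 and -1.19 for nerd-1+T. Between the mutants, 15 of the 20, of which 10 were not members, were called higher in nerd-1 and 0 lower (background 24% and 14%), with a median difference of 0.50 log2 units, against 0.06 over all features. That count dropped without either of the nerd-1 libraries, as did the share over all features. After scaling to the FPKM total it was 12 (background 11.8%). The list was chosen with earlier results of these data known. Nothing is therefore read from its counts of calls against the background, with or without the members. Of the genes on the list that were not members, FMOGS-OX3 had 13.9 and 13.3 FPKM in nerd-1, 6.46 and 5.94 FPKM in nerd-1+T, and 27.5 and 25.0 FPKM in WT, and BAT5, a bile acid transporter family gene that moves keto acids into plastids, had 24.6 and 23.2 FPKM in nerd-1, 12.9 and 12.3 FPKM in nerd-1+T, and 35.9 and 37.0 FPKM in WT.

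The list for indole glucosinolates and camalexin held 1 member, MYB34, a regulator of the indole branch, with 24.2 and 24.8 FPKM in nerd-1, 20.3 and 23.4 FPKM in nerd-1+T, and 55.9 and 54.1 FPKM in WT. Of the 11 other genes tested, 4 were called lower and 4 higher in nerd-1 than in WT (backgrounds 36.3% and 19.4%), and 5 lower and 5 higher in nerd-1+T (backgrounds 39.8% and 13.2%). CYP81F2, which modifies indole glucosinolates, was among the higher ones with 14.8 and 14.1 FPKM in nerd-1, 13.8 and 14.7 FPKM in nerd-1+T, and 2.71 and 2.48 FPKM in WT.

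**Figure D3:**
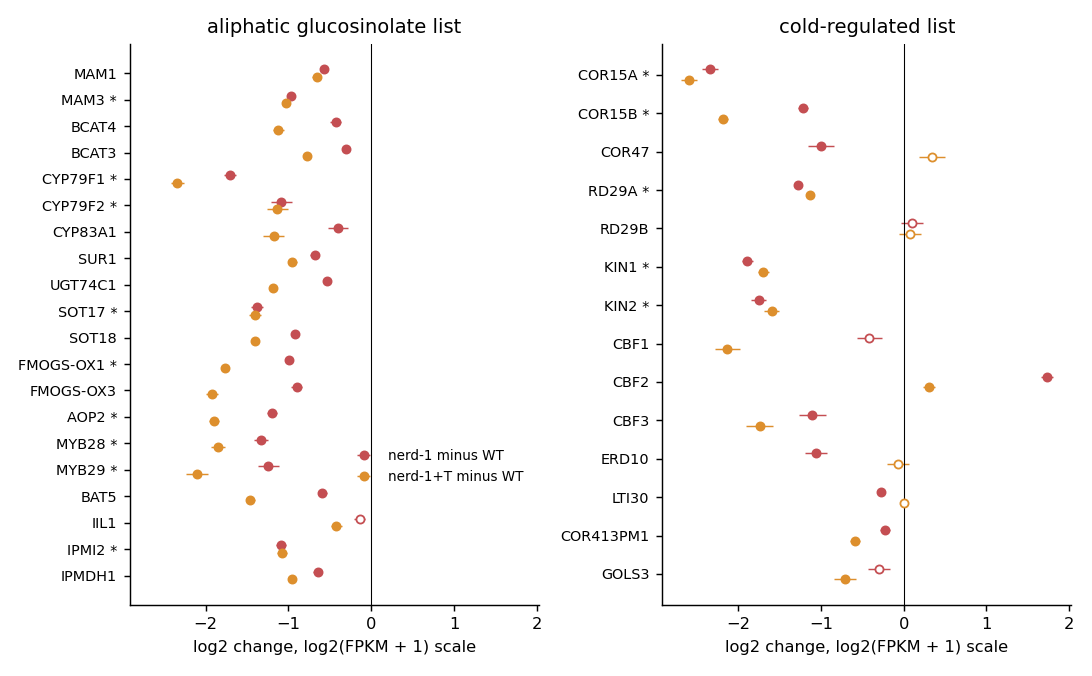
Log2 change against WT, log2(FPKM + 1) scale, of each tested gene on the aliphatic glucosinolate list (left) and the cold-regulated list (right), for nerd-1 (red, upper) and nerd-1+T (orange, lower), with SE as bars. Filled points passed limma's threshold of 0.05, open points did not, and stars mark members (MAM3 is IMS2 and RD29A is LTI78). The left panel lies below 0 throughout, while in the right panel CBF2 (filled) and RD29B (open) lie above 0 in both genotypes and COR47 (open) does in nerd-1+T.

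Of 14 genes on the cold-regulated list, chosen in the same way, 5 were members (background 0.698% of the 14910 genes at the WT level of the rule). COR15A and COR15B, neighbours 7 bases apart on chromosome 2, encode chloroplast proteins that protect membranes from freezing. COR15A had 23.3 and 25.7 FPKM in nerd-1, 18.6 and 22.3 FPKM in nerd-1+T, and 132 and 124 FPKM in WT. COR15B had 93.6 and 97.1 FPKM in nerd-1, 46.5 and 50.2 FPKM in nerd-1+T, and 229.7 and 217 FPKM in WT. COR15B kept a higher share of its WT level in nerd-1 than COR15A did, and it was called higher in nerd-1 than in nerd-1+T (log2 difference 0.96, SE 0.06, limma adjusted p = 0.000874), whereas COR15A was not (0.25, SE 0.10, adjusted p = 0.0991).

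KIN1 and KIN2, small hydrophilic stress proteins encoded 892 bases apart on chromosome 5, differed widely in level. KIN2 had 615 and 639 FPKM in nerd-1, 651 and 752 FPKM in nerd-1+T, and 2169 and 2062 FPKM in WT, the highest WT level of any member. KIN1 had 9.09 and 9.73 FPKM in nerd-1, 10.2 and 11.6 FPKM in nerd-1+T, and 37.8 and 37.1 FPKM in WT. LTI78 (RD29A), a classical reporter of cold and drought responses, had 27.0 and 26.3 FPKM in nerd-1, 30.3 and 28.8 FPKM in nerd-1+T, and 66.0 and 65.7 FPKM in WT. In KIN1, KIN2 and LTI78 both nerd-1 values lay below both nerd-1+T values, but none of the differences passed the threshold (limma adjusted p = 0.0835, 0.203 and 0.0606). COR15A and COR15B, like KIN1 and KIN2, are close paralogs, and the division of reads within each pair is uncertain.

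Over the whole cold-regulated list, of which 5 genes are lower by the rule, 10 of 14 genes were called lower and 1 higher in nerd-1 than in WT, and 9 lower and 1 higher in nerd-1+T, with a median log2 change of -1.03 for nerd-1 and of -0.92 for nerd-1+T. Among the 9 genes that are not members, 5 were called lower and 1 higher in nerd-1 (backgrounds 36.3% and 19.4%), and 4 lower and 1 higher in nerd-1+T (backgrounds 39.8% and 13.2%), with a median log2 change of -0.30 for nerd-1 and of -0.07 for nerd-1+T. Of these 9, 4 were called higher and 3 lower in nerd-1 than in nerd-1+T (backgrounds 24% and 14%). As this list too was chosen with earlier results known, nothing is read from its counts. The calls of CBF3, COR413PM1 and LTI30, like that of ERD10 below, were lost without either nerd-1 library. That of CBF3 was also lost with no filter and with a replicate block (limma adjusted p = 0.0636 and 0.0530). It was lost as well without nerd-1+T replicate 2 (log2 difference 0.59). COR47, a dehydrin, had 443 and 429.9 FPKM in nerd-1, 934 and 1307 FPKM in nerd-1+T, and 874 and 871 FPKM in WT. ERD10, a related dehydrin, had 96.5 and 100.1 FPKM in nerd-1, 171 and 228 FPKM in nerd-1+T, and 203 and 209.5 FPKM in WT. Both were called lower in nerd-1 than in nerd-1+T (log2 differences of -1.34 and -0.997, limma adjusted p = 0.00389 and 0.00561), and the call of ERD10 was lost without either nerd-1 library (limma adjusted p = 0.0531 and 0.0507). Among the transcription factors, CBF2 had 19.4 and 19.9 FPKM in nerd-1, 7.04 and 6.32 FPKM in nerd-1+T, and 5.01 and 5.401 FPKM in WT. CBF1 had 5.37 and 4.30 FPKM in nerd-1, 0.951 and 0.604 FPKM in nerd-1+T, and 7.32 and 6.18 FPKM in WT. CBF3 had 1.04 and 1.59 FPKM in nerd-1, 0.527 and 0.434 FPKM in nerd-1+T, and 4.49 and 3.44 FPKM in WT.

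The CBF element was looked for in the 500 bases before the annotated start of each gene in the TAIR10.1 genome (RefSeq). CCGAC, on either strand, occurred in 23.3% of the 103 members found there and in 23.3% of all 14871 promoters with the same WT level, and in 3 of the 5 cold-regulated members. The windows of COR15A and LTI78 are shown because these are the cold-regulated members with the core between genes, and the stretch before COR15B lies within the annotated COR15A gene. Each sequence is written in the direction of the gene, with the core in capitals (GTCGG where it lies on the opposite strand).
COR15A, chr2:17712458-17712482, minus strand, 142 bases before the start: ttgcaaccttGTCGGtttattttgt
COR15A, chr2:17712395-17712419, minus strand, 79 bases before the start: aacttgttggCCGACatacatttgt
LTI78, chr5:21240567-21240591, plus strand, 140 bases before the start: tagacatggaCCGACtactaataat
LTI78, chr5:21240617-21240641, plus strand, 90 bases before the start: aaatatcataCCGACatcagtttga
LTI78, chr5:21240674-21240698, plus strand, 33 bases before the start: agatatactaCCGACatgagttcca
A match is a description of the letters and not a bound site. Of the other motifs searched on both strands, the G-box CACGTG occurred in 10.7% of the members and 10.2% of all promoters, ACGTGNC of the abscisic acid response in 8.74% and 13.4%, TTGACC in 18.4% and 20.3%, TTGACT in 29.1% and 30.6%, the evening element AAAATATCT in 6.80% and 4.67%, GNATATNC of the phosphate response in 18.4% and 10.6%, GTAC in 58.3% and 57.9%, and TATAAA in 70.9% and 66.0%. The heat shock element was in 0 member promoters and 0.861% of all. CACGTG and ACGTGNC can overlap, so that 1 site may count for both.

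Further drought and cold genes outside the list were picked by their annotation after the values had been seen. GolS2, a galactinol synthase that starts the synthesis of protective sugars, had 4.75 and 4.14 FPKM in nerd-1, 1.58 and 1.72 FPKM in nerd-1+T, and 11.4 and 12.8 FPKM in WT. AT4G30650, of the low temperature and salt responsive family, had 101 and 106 FPKM in nerd-1, 63.4 and 54.1 FPKM in nerd-1+T, and 218 and 219 FPKM in WT. RD20, a caleosin of the drought response, had 7.61 and 7.67 FPKM in nerd-1, 6.03 and 7.22 FPKM in nerd-1+T, and 15.6 and 17.1 FPKM in WT. In each, both nerd-1 values lay above both nerd-1+T values, and the difference was called for GolS2 and AT4G30650 (log2 differences of 1.04 and 0.81, limma adjusted p = 0.00189 and 0.00276) but not for RD20 (0.18, adjusted p = 0.160).

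Hormone and defence lists each held 1 or 2 members. LOX2, the plastid lipoxygenase of jasmonate synthesis, had 94.2 and 92.8 FPKM in nerd-1, 82.5 and 84.0 FPKM in nerd-1+T, and 244 and 244 FPKM in WT. CORI3, a jasmonate-induced cystine lyase, had 12.2 and 12.6 FPKM in nerd-1, 12.2 and 14.2 FPKM in nerd-1+T, and 36.3 and 34.5 FPKM in WT. Of the 17 other jasmonate genes tested, 4 were called lower and 4 higher in nerd-1 than in WT (backgrounds 36.3% and 19.4%), and 6 lower and 7 higher in nerd-1+T (backgrounds 39.8% and 13.2%). JAZ7, a jasmonate repressor, had 8.996 and 9.96 FPKM in nerd-1, 11.6 and 15.1 FPKM in nerd-1+T, and 1.15 and 0.974 FPKM in WT. HPL1, the hydroperoxide lyase of green leaf volatile synthesis, which uses the same fatty acid hydroperoxides and was not on a list, had 2.89 and 2.55 FPKM in nerd-1, 1.18 and 0.908 FPKM in nerd-1+T, and 8.29 and 8.56 FPKM in WT. ACD6, an ankyrin protein that promotes salicylic acid defence, had 12.1 and 11.99 FPKM in nerd-1, 12.6 and 14.1 FPKM in nerd-1+T, and 33.9 and 35.3 FPKM in WT. Of the 14 other salicylic acid genes tested, 3 were called lower and 4 higher in nerd-1 than in WT (backgrounds 36.3% and 19.4%), and 5 lower and 2 higher in nerd-1+T (backgrounds 39.8% and 13.2%).

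PYE, a basic helix-loop-helix regulator of the iron deficiency response in roots, had 12.03 and 10.7 FPKM in nerd-1, 7.18 and 9.11 FPKM in nerd-1+T, and 28.1 and 29.7 FPKM in WT. NAS1, not on the list, makes the metal chelator nicotianamine, and had 36.3 and 33.1 FPKM in nerd-1, 28.5 and 32.6 FPKM in nerd-1+T, and 78.8 and 82.8 FPKM in WT. Of the 16 other iron genes tested, 6 were called lower and 6 higher in nerd-1 than in WT (backgrounds 36.3% and 19.4%), and 8 lower and 3 higher in nerd-1+T (backgrounds 39.8% and 13.2%). Nothing is read from the counts of the jasmonate, salicylic acid, indole glucosinolate and iron lists, each of which had calls in both directions. The iron transporter IRT1 was among the higher ones, with 14.9 and 15.4 FPKM in nerd-1, 17.37 and 14.4 FPKM in nerd-1+T, and 7.24 and 8.18 FPKM in WT. The 9 remaining lists, on copper, metallothioneins, phosphate, the clock, flavonoids, heat shock, touch and early stress, the RPP4/SNC1 locus and RNA silencing, held 0 members. In all, 19 of the 104 genes were on one of the 15 lists.

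The rule does not order nerd-1 and nerd-1+T, but it bounds the highest of their 4 values, so the difference between them is not fully independent of how the members were chosen. The replicates also lay further apart in nerd-1+T, and the share over all features is a background and not the share to be had with no difference. The comparison asks whether the genes that stayed low in the transgenic line were as low as in nerd-1. Of the 104 members, 42 were called higher in nerd-1 than in nerd-1+T (40.4%, background 24% of 20249 features), 1 was called lower (background 14%) and 61 were not called. The median difference was 0.23 log2 units, against 0.06 over all features. Both nerd-1 values lay above both nerd-1+T values in 62 members (background 44.4%). They lay below in 11, but the share over all features was not counted for that direction. These counts are therefore not set against each other. These counts moved with scaling. After scaling to the FPKM total, which shifted the median of all features by -0.15, 28 members were called higher (11.8% of all features) and 8 lower (28.0% of all features), and with each library set to its median feature 35 were called higher (16.1% of all features) and 6 lower (20.1% of all features). They also moved with single libraries. Without nerd-1 replicate 1 the count of higher members was 18 (5.46% of all features), without nerd-1 replicate 2 it was 21 (5.04%) and without nerd-1+T replicate 2 it was 66 (25.5%), and without nerd-1+T replicate 1 the count of lower members was 14 (23.5% of all features).

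**Figure D4:**
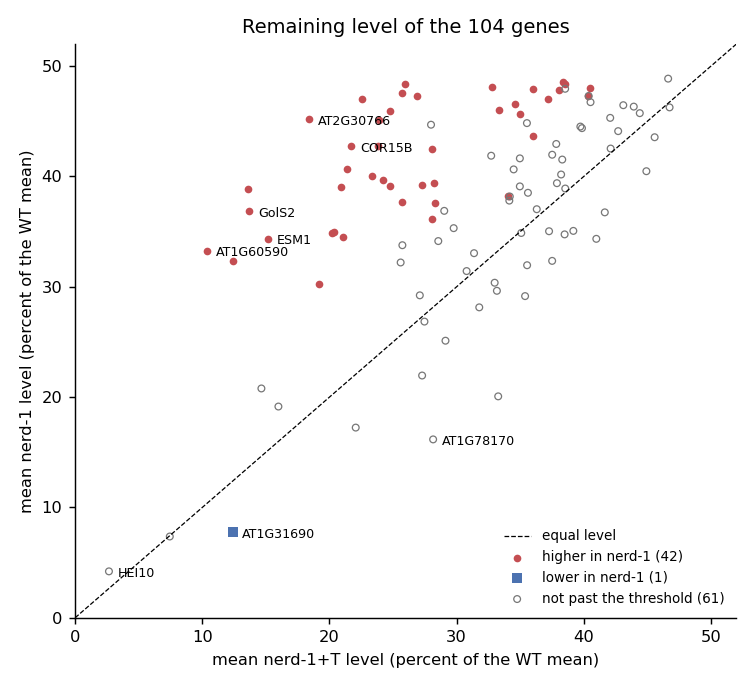
Mean level in nerd-1 (vertical axis) and in nerd-1+T (horizontal axis) for the 104 members, each as percent of the WT mean, with calls by limma (adjusted p under 0.05) between both mutant lines. The 42 red points, higher in nerd-1, lie above the dashed line of equal level, and AT1G60590, the gene with the largest log2 difference, lies at 33.2% in nerd-1, with 10.4% in nerd-1+T.

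The size of the difference was modest in most genes. Of the 42, 27 differed by at least 0.5 and 4 by at least 1 log2 unit. AT1G60590, a pectin lyase-like gene, differed most on the log2 scale, with 11.6 and 12.1 FPKM in nerd-1, 3.55 and 3.84 FPKM in nerd-1+T, and 36.0 and 35.3 FPKM in WT (log2 difference 1.45, SE 0.06, limma adjusted p = 0.000276). AT2G30766, uncharacterized in the annotation, had 33.7 and 32.0 FPKM in nerd-1, 11.1 and 15.72 FPKM in nerd-1+T, and 74.0 and 71.5 FPKM in WT (1.25, SE 0.15, limma adjusted p = 0.00416). ESM1, GolS2 and COR15B, described above, came next. The calls of these 5 genes held under all alternatives, as did 18 of the 43 calls in all. Among the genes not called, AT1G78170, annotated as an E3 ubiquitin ligase, had 23.5 and 24.3 FPKM in nerd-1 and 30.8 and 52.3 FPKM in nerd-1+T, against 148 and 148 FPKM in WT, without passing the threshold (limma adjusted p = 0.0565).

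The other members were grouped by annotation, after their values had been seen. There were 5 MYB transcription factors, which kept 32.0% to 44.5% of the WT level in nerd-1, with 21.4% to 39.7% in nerd-1+T. The one not yet named, MYB48, had 17.65 and 18.5 FPKM in nerd-1, 19.2 and 21.0 FPKM in nerd-1+T, and 54.9 and 58.3 FPKM in WT. Developmental regulators were AGL14, a MADS-box gene of the root, KAN2, which specifies the lower leaf side, BEL1, a homeobox gene known from ovules, and ZPR1, a small zipper protein that restrains HD-ZIP proteins. BEL1 had 12.2 and 11.8 FPKM in nerd-1, 10.05 and 12.2 FPKM in nerd-1+T, and 25.5 and 26.1 FPKM in WT. These 4 genes kept 30.4% to 47.8% in nerd-1, with 33.0% to 43.1% in nerd-1+T, and of them ZPR1 was called higher in nerd-1 than in nerd-1+T (log2 difference 0.30, limma adjusted p = 0.0364). The call of ZPR1 was lost without either nerd-1 library or either WT library, and after scaling to the FPKM total or to the median feature (limma adjusted p = 0.0702 to 0.207).

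Precursors of small peptides were RGF9, CLE21, PSK5, RTFL5 and GASA5. RGF9, of the root meristem growth factor family, had 111 and 118 FPKM in nerd-1, 67.9 and 77.1 FPKM in nerd-1+T, and 294 and 291 FPKM in WT, and was called higher in nerd-1 than in nerd-1+T (log2 difference 0.65, SE 0.07, limma adjusted p = 0.00354). CLE21, encoded 7784 bases away, had 3.85 and 2.99 FPKM in nerd-1, 3.81 and 1.91 FPKM in nerd-1+T, and 11.3 and 8.78 FPKM in WT. The 5 genes kept 34.1% to 45.3% in nerd-1, with 24.8% to 42.1% in nerd-1+T.

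Members of heat shock protein families were AT3G09440 (Hsp70), HSP81-3 (Hsp90) and AT2G19310 (HSP20-like). AT3G09440 had 58.8 and 57.4 FPKM in nerd-1, 42.9 and 44.8 FPKM in nerd-1+T, and 159 and 150.2 FPKM in WT. HSP81-3 had 67.0 and 66.6 FPKM in nerd-1, 52.9 and 53.5 FPKM in nerd-1+T, and 135 and 142 FPKM in WT. AT2G19310 had 58.6 and 61.7 FPKM in nerd-1, 42.7 and 64.8 FPKM in nerd-1+T, and 138 and 148 FPKM in WT. The 2 chaperones with close replicates were called higher in nerd-1 than in nerd-1+T (limma adjusted p = 0.00525 and 0.00650), and AT2G19310 was not. Both calls were lost without nerd-1 replicate 1 (limma adjusted p = 0.0576 and 0.0663) and without nerd-1 replicate 2 (0.0527 and 0.0671).

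Further members were enzymes of the cell wall and of glycosylation. The pectin lyase-like AT1G10640 had 11.2 and 10.9 FPKM in nerd-1, 5.62 and 6.21 FPKM in nerd-1+T, and 22.5 and 23.0 FPKM in WT. UGT71B1, a glucosyltransferase, had 12.3 and 11.6 FPKM in nerd-1, 6.03 and 7.28 FPKM in nerd-1+T, and 28.0 and 27.9 FPKM in WT. Both were called higher in nerd-1 than in nerd-1+T (log2 differences of 0.80 and 0.76, limma adjusted p = 0.00139 and 0.00379). The DUF581 proteins AT1G78020 and AT5G20700 were among the members of highest WT level. AT1G78020 had 118 and 117 FPKM in nerd-1, 82.3 and 92.5 FPKM in nerd-1+T, and 250.1 and 255 FPKM in WT. AT5G20700 had 160.2 and 165 FPKM in nerd-1, 138 and 136 FPKM in nerd-1+T, and 336 and 341 FPKM in WT.

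The members were spread over the genome much as other genes of their level. Of the 103 located, 30 lay on chromosome 1, 16 on chromosome 2, 20 on chromosome 3, 14 on chromosome 4 and 23 on chromosome 5, and 100 were protein-coding. Their median annotated length was 1890 bases, against 2469 bases for all genes with the same WT level. Pairs with AT5G15948, the member that was not located, could not be counted. Among the 103 located members there were 9 pairs within 20 kb. Besides CYP79F1 and CYP79F2, COR15A and COR15B, MYB29 and MYB76, KIN1 and KIN2, and RGF9 and CLE21, they were UGT75B1 and AT1G05562, UMAMIT46 and UMAMIT47, FMO GS-OX1 and AT1G65900, and AT1G78020 and AT1G78070. UGT75B1 and the noncoding AT1G05562 occupy the same coordinates on opposite strands, so that their reads may not be separable. UGT75B1 had 3.22 and 3.17 FPKM in nerd-1, 3.28 and 4.13 FPKM in nerd-1+T, and 9.69 and 10.06 FPKM in WT, and AT1G05562 had 26.6 and 28.2 FPKM in nerd-1, 22.01 and 23.2 FPKM in nerd-1+T, and 62.0 and 63.5 FPKM in WT. The amino acid transporter family genes UMAMIT46 and UMAMIT47, 338 bases apart, were not alike in their calls between the mutants. UMAMIT46 had 9.40 and 9.41 FPKM in nerd-1, 3.84 and 5.19 FPKM in nerd-1+T, and 19.1 and 20.9 FPKM in WT (log2 difference between nerd-1 and nerd-1+T 0.93, SE 0.12, limma adjusted p = 0.00543), a call lost without either nerd-1 library (limma adjusted p = 0.0511 and 0.0523). UMAMIT47 had 6.76 and 7.03 FPKM in nerd-1, 6.88 and 8.75 FPKM in nerd-1+T, and 18.21 and 19.3 FPKM in WT (-0.15, SE 0.11, limma adjusted p = 0.308). AT1G65900 had 5.88 and 5.94 FPKM in nerd-1, 4.25 and 4.95 FPKM in nerd-1+T, and 16.1 and 16.7 FPKM in WT. AT1G78070, a WD40 repeat protein, had 17.64 and 17.3 FPKM in nerd-1, 11.8 and 14.5 FPKM in nerd-1+T, and 37.1 and 36.0 FPKM in WT.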

How the data were processed

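Polyadenylated RNA of 14-d-old seedlings of nerd-1, nerd-1+T and WT was sequenced by the authors as stranded single-end libraries, with 2 replicates per genotype. Reads of organelle and rRNA genes were removed with Bowtie2 2.3.4, the rest was mapped to TAIR10 with TopHat2 2.0.7, and the deposited FPKM values were estimated per library with Cufflinks 2.2.1. The files hold 64621 features with identifiers (4 entries without one were left out), of which 60.4% to 61.5% were at 0. FPKM totals were 847355 to 966119 per library. FPKM values hold no read depth, for which the study states 2 differing ranges over its libraries, and the replicates give the precision, with a median SD on the log2(FPKM + 1) scale of 0.04 for nerd-1, 0.09 for nerd-1+T and 0.04 for WT.

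Log2(FPKM + 1), which understates the change of low genes, was fitted with limma 3.58.1 in R 4.3.3 (mean-variance trend, all 6 libraries, no block) over the 20249 features that reached 1 FPKM in 2 or more libraries, with Benjamini-Hochberg adjusted p-values and a threshold of 0.05. A count test had been foreseen if counts were deposited, and was replaced. On simulated data for nerd-1 against nerd-1+T (20249 features, 200 changed), 100% of changes of 0.5 and of 1 log2 unit were recovered and 6.10% of calls were false. The simulation gave all genotypes the same spread and no differences between libraries, whereas the nerd-1+T replicates lay further apart. It was a check of the code, and these rates do not carry over to the calls reported here. Replicate numbers did not pair the libraries (correlations of deviations of 0.05, 0.09 and -0.00).

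The members and the gene lists were chosen with earlier results of these data known. Named genes are the 12 with the largest ratio, the 8 with the highest WT mean, members on a list, the 5 with the largest called difference between nerd-1 and nerd-1+T in each direction, members within 20 kb of each other, those at the border of the rule and NERD; others were picked after their values had been seen. Gene names, locations and sequences are from TAIR10.1 (RefSeq), which holds 103 of the 104 members (not AT5G15948); 69 of 69 gene locations given by the study were identical there. Alternatives were other scalings, filters, pseudocount 0.1, the nerd-1 and nerd-1+T libraries alone, a replicate block, other limits of the rule and leaving out each library. Scripts ran on Python 3.11.15 (pandas 2.3.3, numpy 2.4.6, matplotlib 3.10.9).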

Additional observations from a re-analysis of the deposited data

How the results depend on the processing

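The 104 genes became 543 with a fold of 1.5, 12 with a fold of 3, 177 with genotype means in place of single libraries, and, in alternatives chosen after seeing the data, 63 with each library scaled to its median feature, 240 in the replicate 1 and 159 in the replicate 2 libraries alone. Without each library in turn there were 105 to 181 genes. By the form of the rule this number can only rise, and all 104 genes were kept. Members called higher in nerd-1 than in nerd-1+T numbered 28 to 44 under the settings that kept all nerd-1 and nerd-1+T libraries, and 18 to 66 without single libraries. Those called lower numbered 8 after scaling to the FPKM total, 6 with median scaling, 2 with at least 1 FPKM required in every library, and 0 to 14 without single libraries. With the replicate number as a block they were 40 and 1, and the samples share only a number (correlations of deviations of 0.05, 0.09 and -0.00). The shares over all features moved too, so these counts are not read alone. After scaling to the FPKM total 11.8% of all features were called higher and 28.0% lower, in place of 24.0% and 14.0%.

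LOX2 changed sign with scaling to the FPKM total (-0.0032, adjusted p = 0.960 in limma). Over all features, median scaling gave 4130 higher and 3934 lower calls in nerd-1+T against WT, in place of 2675 and 8069. The ranges without single libraries were 1970 to 5022 higher and 3708 to 8589 lower calls in nerd-1 against WT, 1747 to 3529 and 4149 to 9129 in nerd-1+T against WT, 8 to 12 and 9 to 10 lower cold-regulated genes in nerd-1 and nerd-1+T, 18 to 20 and 20 to 20 lower aliphatic glucosinolate genes, and 9 to 15 aliphatic glucosinolate genes higher in nerd-1 than in nerd-1+T. The causes were not tested. With 1 library left in a genotype, that library was assumed to vary like the others. Of the 43 calls between nerd-1 and nerd-1+T, 29 held in every alternative other than leaving out single libraries. These alternatives included the fit on the nerd-1 and nerd-1+T libraries alone.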
